A study of Mus musculus with 12 samples.

Results

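The 2 arms of miR-126, mmu-miR-126-3p and mmu-miR-126-5p, were examined in the retina and sclera of mice with form-deprivation myopia. They were chosen by name, as every mouse miRNA on the array whose name starts with miR-126 followed by a hyphen or the letter a, and are 2 of 696 mouse miRNA names measured. In the study, C57BL/6J mice wore a frosted diffuser over the right eye from postnatal day 24 for 10 days, and both eyes were taken at postnatal day 34, when the right eyes were myopic and the uncovered left eyes of the same animals served as controls. Whole retinas or scleras of 3 eyes were pooled per RNA sample, although each label names 1 mouse, and 3 pools were hybridised for each of 4 groups: retina control, retina myopia, sclera control and sclera myopia. The control tissue was always the fellow eye of a deprived animal, and no array held tissue of an untreated mouse. How the choroid and the pigment epithelium were divided between the tissues is not given in the sources used here.

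miR-126 is known as the miRNA of endothelial cells, the lining of blood vessels. Its hairpin lies in an intron of Egfl7, a gene that endothelial cells transcribe and secrete as a vessel matrix protein, and both arms are cut from the same precursor. The 3p arm is known to favour signalling from the vascular endothelial growth factor receptor by repressing Spred1 and Pik3r2, which dampen that signal, and the 5p arm to favour endothelial proliferation by repressing Dlk1. In the eye, the inner retina has its own capillary network, the choroid is a dense vascular bed under the retina, and the sclera itself is a sparsely vascular collagen coat that larger vessels cross. Because the arrays measured RNA of whole tissue, a smaller number of endothelial cells and less miR-126 per cell cannot be told apart.

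The sequences below show which bases of the hairpin the array reads, since the arms differ in how well their probes saw them. The hairpin Mir126a lies on the plus strand at chr2:26591357-26591429 (GRCm38.p6, RefSeq), inside the span of Egfl7 at chr2:26581083-26592682, 10274 bases after its start and 1253 bases before its end. In the hairpin, capitals mark the bases that the probes of the 2 arms pair with.
Mir126a: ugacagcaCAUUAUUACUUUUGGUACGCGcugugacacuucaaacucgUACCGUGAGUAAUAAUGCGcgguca
In the mature 3p arm, which RefSeq lists as mmu-miR-126a-3p at chr2:26591402-26591423, capitals mark the seed, bases 2 to 8, which selects target mRNAs.
mmu-miR-126a-3p: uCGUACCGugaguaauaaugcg
The mature mmu-miR-126-5p is named only. On the opposite strand RefSeq places a second hairpin, Mir126b, at chr2:26591363-26591420, and no array probe carries its name.

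Each arm was read by 2 probes of 10 spots each, and the longer probe of each pair has 1 more base at its 3′ end, shown in capitals. The array annotation (mm9) places the 3p probes at chr2:26446927-26446943 and chr2:26446926-26446943 and the 5p probes at chr2:26446887-26446905 and chr2:26446886-26446905, intervals that are 1 base shorter than the probes.
3p, 18 bases: cgcattattactcacggt
3p, 19 bases: cgcattattactcacggtA
5p, 20 bases: cgcgtaccaaaagtaataat
5p, 21 bases: cgcgtaccaaaagtaataatG
The scanner software calls a probe detected when its signal exceeds 3 times its error, and sums the detected probes of a miRNA into its total gene signal. Both arms were detected on all 12 arrays. Both 3p probes were detected on every array, and their summed signal stood at 1319 or more. The 5p arm was dim: its 21-base probe was detected on every array with signals from 10.9 to 43.9, but the 20-base probe was detected on only 4 arrays, sclera control 1 and 2 and sclera myopia 1 and 2. Its signal there lay between 7.36 and 10.5, whereas on the other 8 arrays it lay between 3.20 and 5.99 with errors of 1.58 to 3.02. The total gene signal of the 5p arm is therefore a sum of 2 probes on those 4 sclera arrays and the value of 1 probe on all 6 retina arrays and on sclera pool 3 of both groups.

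**Figure D1:**
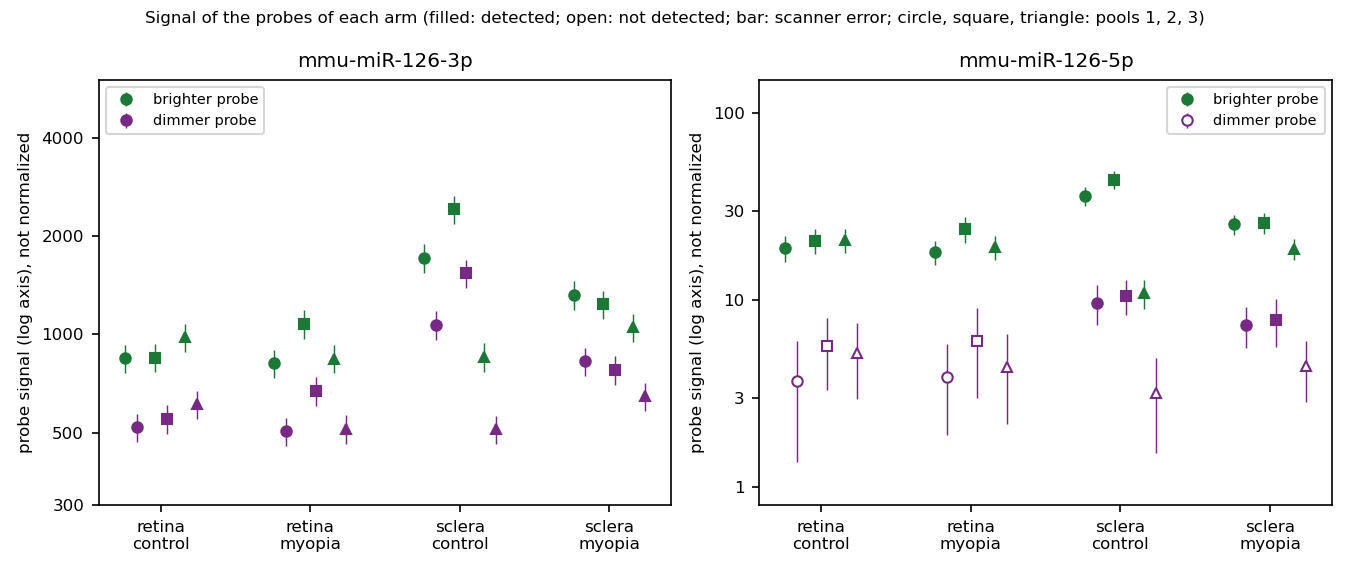
Signal of each probe (log axis, not normalized) for the 3p arm on the left and the 5p arm on the right, by group; the symbol shape gives the pool, the bar the scanner's error, and an open symbol a probe that was not detected. The dimmer 5p probe is open on 8 arrays, including all 6 retina arrays, while both 3p probes are filled throughout.

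The arrays differed in overall brightness, which bears on every comparison between tissues. A total of 353 to 401 miRNAs were detected per retina array and 274 to 317 per sclera array, and 443 miRNAs were detected on at least 1 array. The 75th percentile of the signal of the 246 miRNAs detected on all arrays ran from 1024 to 1414 in the retina and from 276 to 803 in the sclera, with sclera control 3 the dimmest. The main values were quantile normalized over the 12 arrays, which gives every array the same set of values and expresses each miRNA by its rank. Values scaled to the 75th percentile are given beside them where the scales differ. Sample labels were checked against known miRNAs. The 7 neuronal miRNAs tested (miR-124, miR-9, miR-128 and miR-129 arms) and the 4 photoreceptor miRNAs (the miR-183, miR-96 and miR-182 family) were all higher in the retina, and 4 of 5 fibroblast miRNAs (miR-199 and miR-214) were higher in the sclera, past both thresholds given below in each case and in both pairs of groups. Retinal miRNAs were present in the sclera in varying amount: the summed normalized signal of the neuronal list was 117126 to 118576 in the retina control arrays and 1407 to 7038 in the sclera control arrays. Endothelial content of the pools has no marker here other than miR-126 itself.

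Before normalization, the total gene signal of mmu-miR-126-3p in the retina control was 1362, 1399 and 1590 in pools 1, 2 and 3. In the retina myopia group it was 1319, 1746 and 1355. The retina groups overlapped, and 5 of the 6 retina arrays lay between 1319 and 1590. In the sclera control it was 2787, 3951 and 1367, and in the sclera myopia group 2146, 2012 and 1696. Pool 3 of both sclera groups, of which sclera control 3 was the dimmest array, lay inside the range of the retina arrays, and the other 4 sclera arrays lay above it. After quantile normalization the 3p arm stood at 10.17 ± 0.08 on the log2 scale in the retina control (SD, n = 3), at 10.16 ± 0.13 in the retina myopia group, at 12.02 ± 0.19 in the sclera control and at 11.71 ± 0.09 in the sclera myopia group. All 6 sclera arrays, from 11.62 to 12.15, then lay above all 6 retina arrays, from 10.03 to 10.28.

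For mmu-miR-126-5p the total gene signal was 19.0, 20.7 and 20.9 in the retina control and 18.0, 23.95 and 19.2 in the retina myopia group. These are 6 nearly equal values, and the groups overlapped. The sclera control arrays gave 45.4, 54.4 and 10.9, and the sclera myopia arrays 32.8, 33.8 and 18.8. Pool 3 was the lowest in both sclera groups, and in the sclera control it fell below every retina array. After quantile normalization the 5p arm stood at 4.09 ± 0.76 in the retina control, at 3.02 ± 0.41 in the retina myopia group, at 6.23 ± 0.40 in the sclera control and at 6.14 ± 0.29 in the sclera myopia group (SD, n = 3, log2). The spread in the retina control came from 3 values of 3.25, 4.30 and 4.72, although the signals behind them differed by less than their scanner errors of 3.02 to 3.12. With each array scaled to its 75th percentile instead, the same 3 arrays gave 3.78, 3.87 and 3.84.

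**Figure D2:**
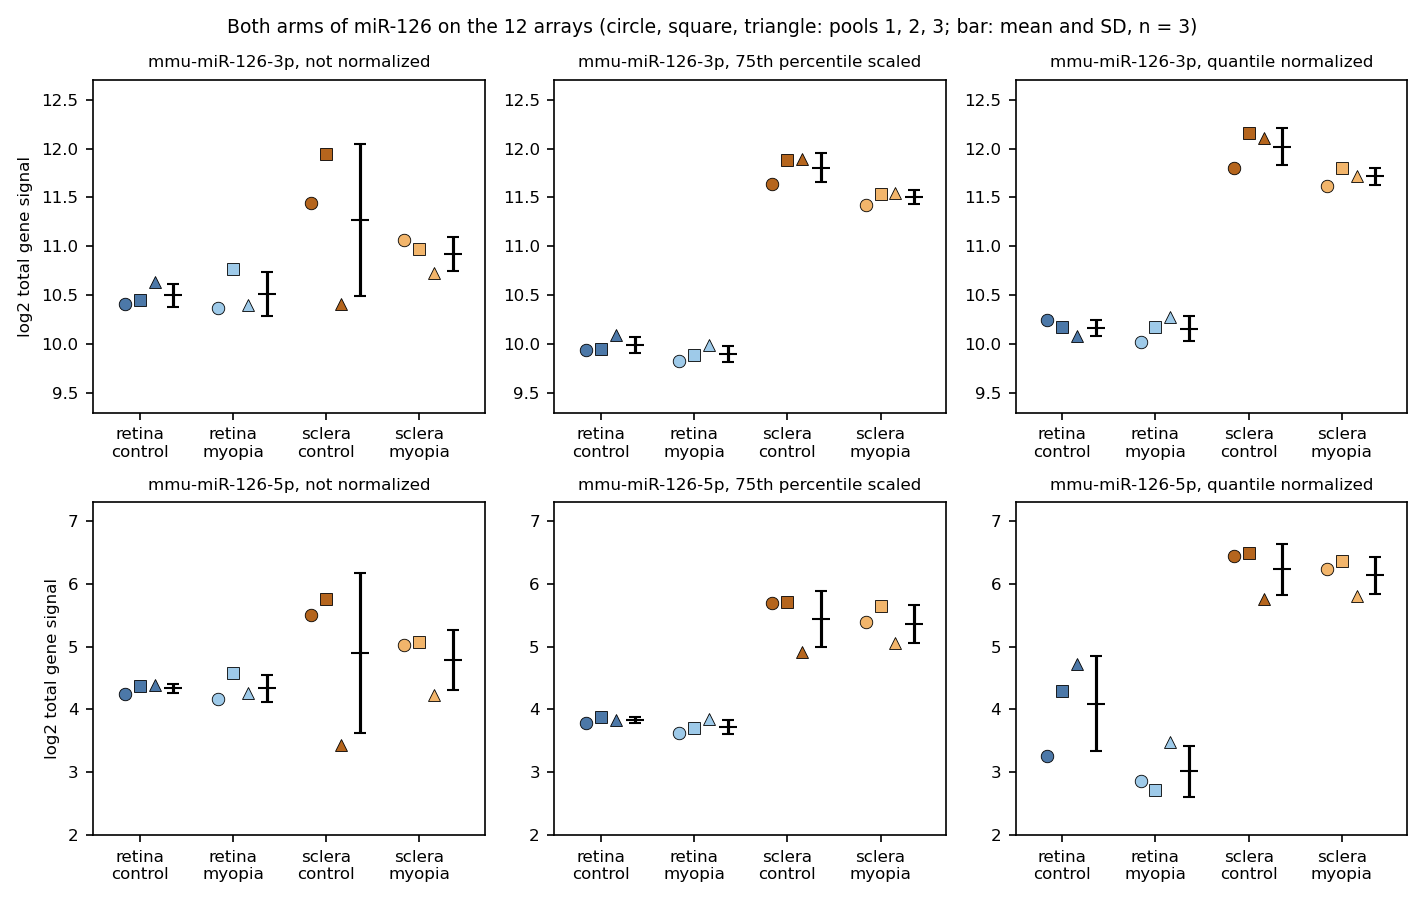
log2 total gene signal of the 3p arm (top) and the 5p arm (bottom) on the 12 arrays, not normalized, scaled to the 75th percentile of each array and quantile normalized; symbols are pools and the bars the mean and SD of 3 arrays. The sclera arrays lie above the retina arrays on both normalized scales, and the 2 retina groups of the 5p arm separate in mean on the quantile scale only.

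The first comparison asked how the untreated tissues differ. Both arms were higher in the sclera than in the retina of control eyes. mmu-miR-126-3p was lower in the retina by 1.85 on the log2 scale, a 3.61-fold difference (SE 0.13, 95% CI -2.15 to -1.55, limma adjusted p = 1.58e-06), and mmu-miR-126-5p fell by 2.14 from sclera to retina, a 4.41-fold difference (SE 0.39, 95% CI -3.02 to -1.26, limma adjusted p = 0.000928). To be called, a difference had to reach 2-fold with an adjusted p below 0.05. Both arms passed, against 50.6% of the 443 miRNAs tested, 27.5% higher and 23% lower in the retina, so that a call between these tissues was common. Neither arm overlapped between the control groups, which held for 26% of all miRNAs in this direction. Among the 246 miRNAs detected on all arrays, 41 had a more negative retina-minus-sclera difference than the 3p arm and 32 a more negative one than the 5p arm.

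The size of this difference depended on the scale. The median miRNA tested was higher in the control retina by 0.30 on the log2 scale after quantile normalization, by 0.55 after scaling to the 75th percentile and by 1.58 without normalization. The 3p arm was lower than this median by 2.15, 2.35 and 2.35, respectively, and the 5p arm by 2.44, 2.15 and 2.15. The values without normalization equal those of the 75th percentile by construction, since that scaling changes all miRNAs of an array by the same factor. Relative to the median miRNA both arms were thus lower in the retina by more than 4-fold, with quantile normalization and without it. In absolute terms, the difference without normalization was -0.77 (SE 0.36, limma adjusted p = 0.0886) for the 3p arm and -0.57 (SE 0.54, limma adjusted p = 0.39) for the 5p arm, and neither was called. The split of calls over all miRNAs moved as well, from 122 higher and 102 lower in the retina to 150 and 88 with the 75th percentile (53.7% called) and to 224 and 44 without normalization (60.5% called). The lower total brightness of the sclera arrays, given above, moves with this result, and its part was not tested.

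Between the deprived eyes the same direction was measured. The 3p arm was lower in the myopic retina than in the myopic sclera by 1.55 (SE 0.13, 2.94-fold, limma adjusted p = 4.28e-06), and the 5p arm fell by 3.12 (SE 0.39, 8.70-fold, limma adjusted p = 6.30e-05). Both were called, against 58.9% of all miRNAs, and the groups did not overlap for either arm, as for 35% of all miRNAs in this direction. With the 75th percentile the differences were -1.60 (SE 0.12) for the 3p arm and -1.63 (SE 0.23) for the 5p arm, both called, as were 62.1% of all miRNAs. The larger difference of the 5p arm on the quantile scale was thus not seen on that one. Over all miRNAs, quantile normalization gave 144 calls in favour of the myopic retina and 117 against it, the 75th percentile 187 and 88, and no normalization 266 and 42 (69.5% called), with neither arm among them.

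**Figure D3:**
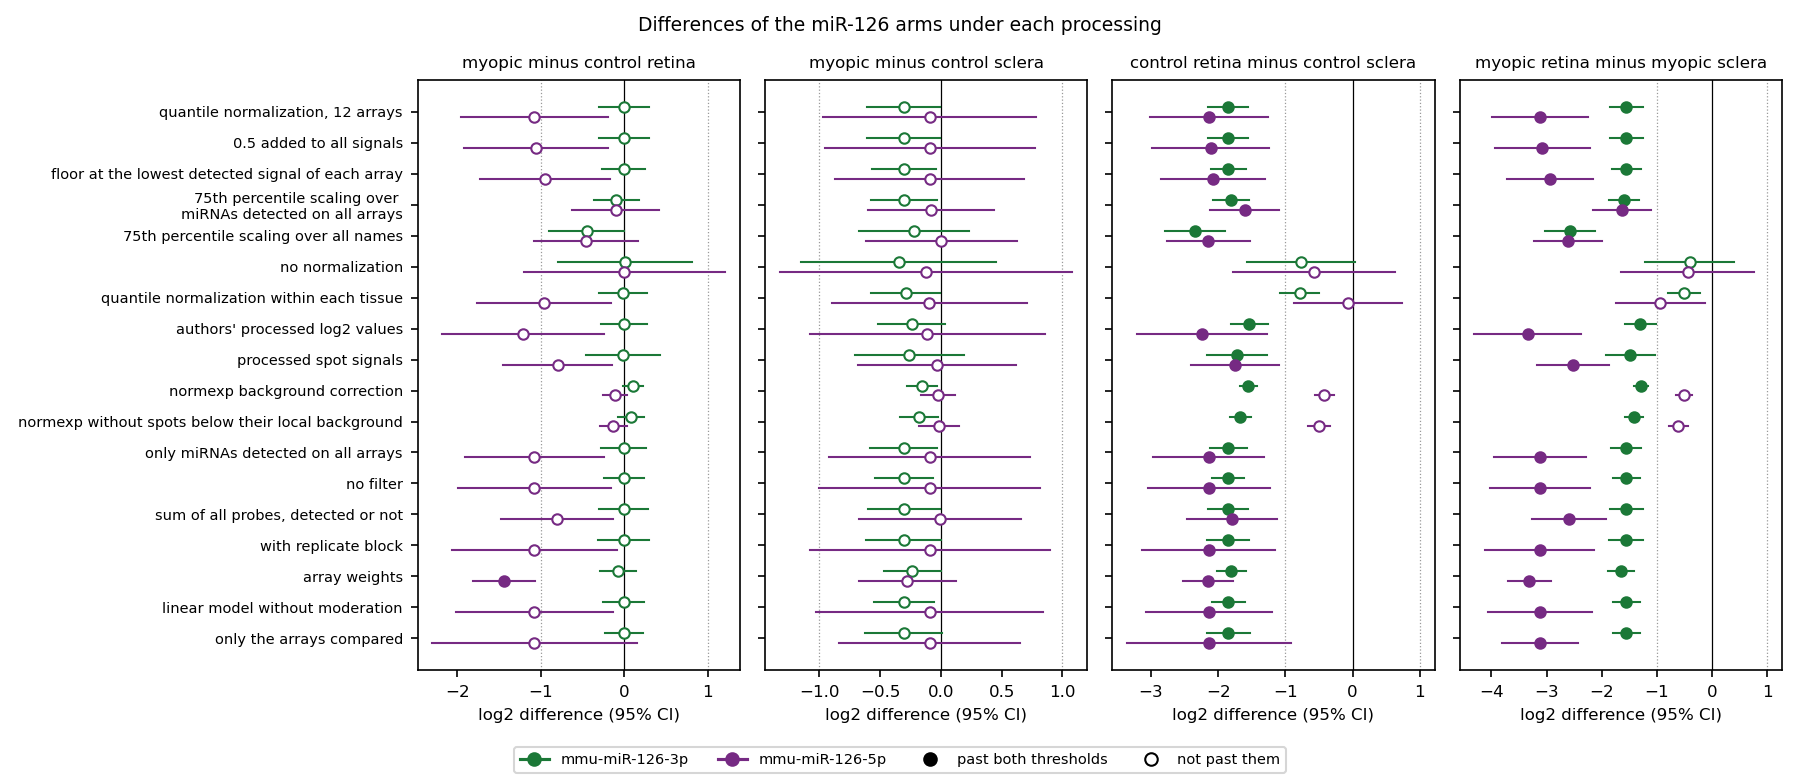
log2 difference of the 3p arm (green) and the 5p arm (purple) with its 95% confidence interval in 4 comparisons (columns) under each processing (rows); filled symbols passed an adjusted p under 0.05 and a 2-fold change, and dotted lines mark 2-fold. The tissue differences lose their calls without normalization and with normalization within each tissue, and the 5p arm also with both forms of normexp background correction (offset of 50), while in the retina only array weights gave a call.

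The comparison at the centre of the study, myopic against control retina, gave no call for either arm, against 0.226% of all miRNAs (1 of 443). mmu-miR-126-3p differed by -0.01 on the log2 scale (SE 0.13, 95% CI -0.31 to 0.29, limma unadjusted p = 0.961). Within the 3 pool numbers, which the paper matches between control and myopic retina, the differences were -0.22, 0 and 0.20, with 1 pair lower and 1 higher. With the 75th percentile the difference was -0.09 (95% CI -0.36 to 0.18), the pairs were lower in 3 of 3, by 0.12, 0.06 and 0.10, and the groups overlapped.

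mmu-miR-126-5p was lower in the myopic retina by 1.07 on the quantile-normalized scale, a 2.11-fold difference (SE 0.39, 95% CI -1.95 to -0.20, limma unadjusted p = 0.0215, adjusted p = 0.142). All 3 pool pairs were lower, by 0.39, 1.59 and 1.25, but the groups overlapped. The difference passed both thresholds when retina control 1 was left out, where the 5p arm fell by 1.51 (limma adjusted p = 0.00578), and with array weights, where it fell by 1.44 (limma adjusted p = 4.37e-05). With array weights, however, 146 of all miRNAs were called in place of 1, and without retina control 1, 122 were. The same model fitted to the deposited values of the authors gave -1.21 (SE 0.43, limma adjusted p = 0.14), which is not a call. The paper's own analysis called the 5p arm lower in the myopic retina, and the reason for the different outcome was not tested.

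Some other settings gave a smaller retinal 5p difference. It was 0.0026 (SE 0.54) without normalization and -0.10 (SE 0.23, 95% CI -0.62 to 0.41, limma adjusted p = 1.00) with the 75th percentile. Normexp background correction gave -0.11 (SE 0.06), but it adds an offset of 50 to every spot, and the 5p spots of the retina arrays stood only 19.4 to 59.0 above their local background, so that differences of the 5p arm are compressed by construction. With the 75th percentile taken over all names, detected or not, it was -0.46, and that of the 3p arm -0.45, neither called. The size of the quantile-normalized difference went with the brightness of a miRNA. Of the 41 miRNAs with a mean normalized signal from 2 to 4 on the log2 scale in the retina, where the 5p arm lies at 3.56, 35 were lower in the myopic retina, with a median of -0.87. The median was -1.35 below 2, -0.61 from 4 to 6, -0.30 from 6 to 8, -0.08 from 8 to 10 and 0.02 above 10, where the 3p arm lies at 10.16. After scaling to the 75th percentile the 6 medians ran from -0.02 to 0.06. More miRNAs were detected in the retina myopia arrays, 376 to 401, than in the retina control arrays, 353 to 372, and the 5p arm held the brightness rank 333, 338 and 314 in the former and 320, 286 and 271 in the latter.

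**Figure D4:**
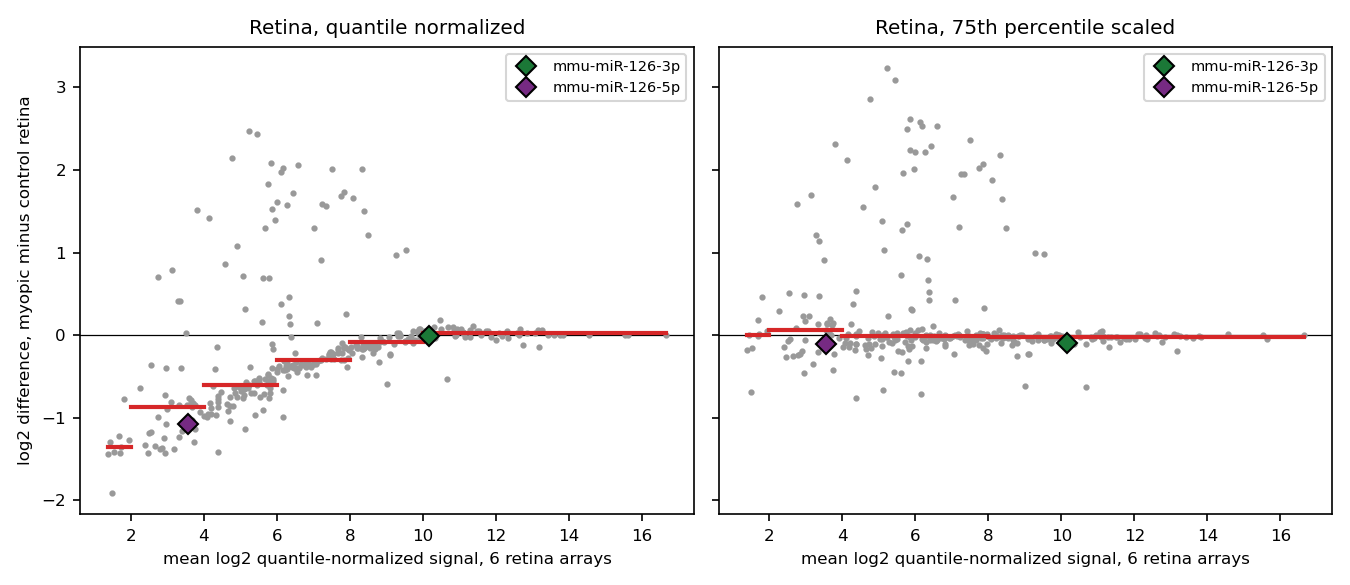
log2 difference between myopic and control retina against the mean normalized signal for the 329 miRNAs detected on all 6 retina arrays, after quantile normalization (left) and 75th percentile scaling (right); red lines are medians per brightness bin and diamonds the miR-126 arms. On the left 35 of the 41 miRNAs from 2 to 4 lie below 0, the 5p arm among them, and on the right both arms lie near 0 at -0.09 and -0.10.

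In the sclera, deprivation gave no call among all miRNAs by limma (0 of 443, 0%, with 13 at an unadjusted p under 0.05), and none for the arms. mmu-miR-126-3p was lower in the myopic sclera by 0.31, a 1.24-fold difference (SE 0.13, 95% CI -0.60 to -0.01, limma unadjusted p = 0.046, adjusted p = 1.00). It was lower in 3 of 3 pool pairs, by 0.18, 0.35 and 0.38, and 15 of the 246 miRNAs detected on all arrays had a more negative difference. With the 75th percentile the difference was -0.30 (SE 0.12, limma adjusted p = 0.989), and the groups then did not overlap, as for 4.74% of all miRNAs in this direction. Every alternative with all arrays gave the same sign, from -0.35 to -0.16, but none gave a call. The 2 pigment epithelium miRNAs tested were also lower in the myopic sclera, mmu-miR-204-5p by 0.64 and mmu-miR-211-5p by 0.60, both with an unadjusted p under 0.05 on both normalized scales and neither called by limma (adjusted p = 1.00 for each). Their part in the 3p difference was not tested. mmu-miR-126-5p differed in the sclera by -0.09 (SE 0.39, 95% CI -0.97 to 0.78, limma adjusted p = 1.00), with 2 pool pairs lower and 1 higher. Its interval is the wider of the 2 arms and reaches nearly 2-fold in the negative direction.

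The change with deprivation was also compared between the tissues. The retinal minus the scleral change was 0.30 for the 3p arm (SE 0.19, 95% CI -0.12 to 0.72, limma adjusted p = 0.403) and -0.98 for the 5p arm (SE 0.55, 95% CI -2.22 to 0.26, limma adjusted p = 0.38). Neither was called, against 0.226% of all miRNAs. With the 75th percentile the values were 0.21 (SE 0.17) and -0.03 (SE 0.33). As in the retina, the 5p value passed the thresholds with array weights (-1.16, limma adjusted p = 0.00259) and without retina control 1 (-1.41, limma adjusted p = 0.0401).

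In the order of levels, the 3p arm ran on both normalized scales from the sclera control over the sclera myopia group to the 2 retina groups, and the 2 groups of a tissue did not differ past the thresholds. For the 5p arm the order was the same, and the sclera groups lay within each other's spread.

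Since an array-wide factor cancels within an array, the log2 signal of the 3p arm minus that of the 5p arm was compared without normalization. The difference says only whether the arms changed unequally, because 2 probes cannot be set against each other as amounts. In the retina it was 6.16 ± 0.09 in the control and 6.18 ± 0.03 in the myopia group (SD, n = 3), and the change of 0.01 was within the spread (two-sided exact permutation p = 0.8, where 3 arrays against 3 allow no p below 0.1). In the sclera it was 6.37 ± 0.54 and 6.14 ± 0.31, a change of -0.22 (two-sided exact permutation p = 0.6). Between all 6 retina and all 6 sclera arrays it differed by -0.08 (two-sided exact permutation p = 0.71).

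The tissue comparison of the arms changed with the probes used for the 5p arm. The permutations here treated the arrays as independent, although same-numbered arrays share a slide and the paper matches same-numbered retina samples. With the replicate block, only the total gene signal was tested between tissues (exact p = 0.656), so the p-values below leave the pairing out. Where the 21-base probe alone stood for the 5p arm, a setting added after the data were seen, all 6 retina arrays (6.08 to 6.25) lay below all 6 sclera arrays (6.28 to 6.98), a difference of -0.32 (two-sided exact permutation p = 0.00216, the smallest that 6 arrays against 6 allow). The sum of both probes, detected or not, also added later, gave -0.28 (p = 0.013, exact), and the processed spot signals gave -0.29 (p = 0.00649, exact). Sclera control 3 gave the highest of these values, and without it, also run later, the same 3 settings gave -0.22, with the retina arrays still below the 5 sclera arrays (p = 0.00216, exact), -0.18 (p = 0.0152, exact) and -0.19 (p = 0.00649, exact). With the total gene signal, leaving out sclera control 3 turned the difference of -0.08 to 0.06. Quantile normalization gave 0.93 (p = 0.039, exact) and the authors' values 1.37. Normexp gave 0.23, but on 3 arrays (retina control 3, sclera control 2 and sclera myopia 2) its fit was distorted by 2 to 11 spots dimmer than their local background, none of them of miR-126, and with those spots left out it gave -0.48 (p = 0.00649, exact). With the probes kept alike, the retina arrays were thus lower in this measure with and without sclera control 3. The tissue differences of each arm with the 75th percentile were larger, 1.60 to 1.81. Those are of the total gene signal, in which the 5p probes were not kept alike. The sign was the opposite on the quantile-normalized scale and in the authors' values.

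**Figure D5:**
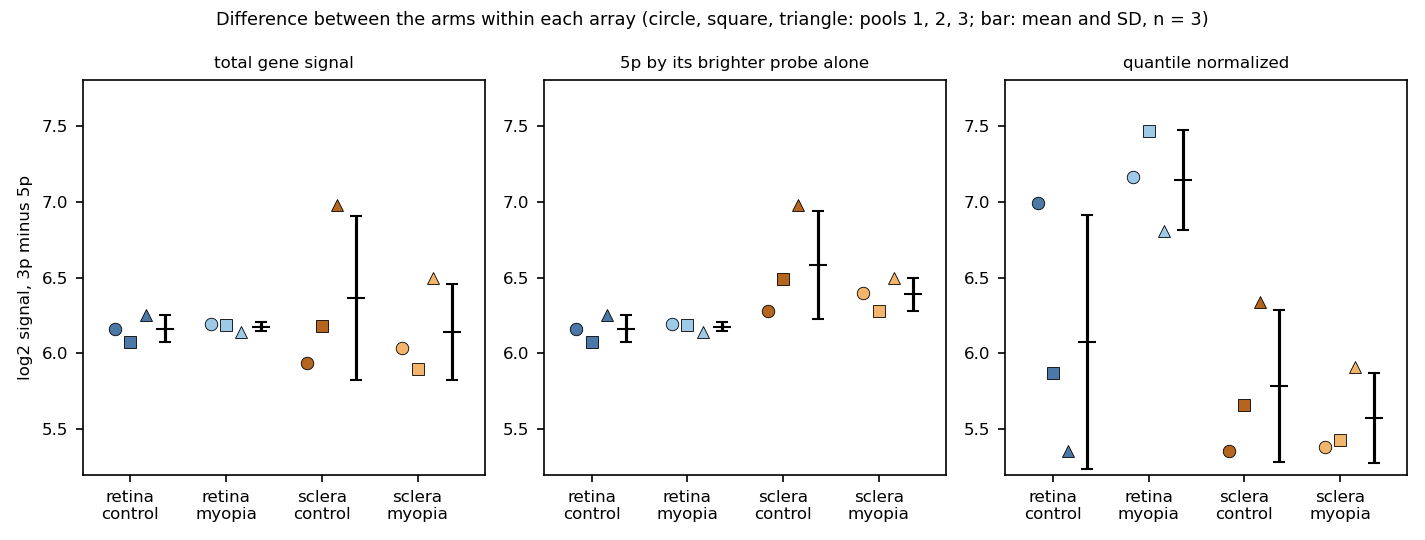
log2 signal of the 3p arm minus that of the 5p arm within each array, for the total gene signal (left), with the 21-base probe alone for the 5p arm (middle) and after quantile normalization (right); symbols are pools, bars the mean and SD of 3 arrays. The retina arrays keep to 6.08 to 6.25 in the left and middle panels and scatter widely in the right one.

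The miRNAs whose profiles lay nearest to each arm were found among the 246 detected on all 12 arrays, by the root mean square difference of the quantile-normalized log2 values after each profile was centred on its mean. For mmu-miR-126-3p these were mmu-miR-720 (0.19), mmu-miR-329-3p (0.25), mmu-miR-494-3p (0.25), mmu-miR-22-3p (0.25) and mmu-miR-100-5p (0.26). For mmu-miR-126-5p they were mmu-miR-411-3p (0.24), mmu-miR-221-3p (0.28), mmu-miR-411-5p (0.31), mmu-miR-28-5p (0.31) and mmu-miR-671-5p (0.32). All 10 had higher means in both sclera groups than in either retina group. Most of these ranks did not carry over to the 75th percentile, where the 5 neighbours of the 3p arm were number 59 (mmu-miR-720, at 0.58), 26, 10, 2 and 5 in the order given and those of the 5p arm number 2, 8, 7, 4 and 12. The arms of the one hairpin were not each other's neighbours on this scale: at a distance of 0.74, the 5p arm was number 91 of 245 from the 3p arm and the 3p arm number 49 from the 5p arm. After scaling to the 75th percentile the distance was 0.27, and they were number 9 and number 3. These are descriptions over 12 arrays that share their tissue.

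Other vessel and blood miRNAs were read as lists chosen for their known cell types. Of 14 tested miRNAs linked to endothelium or vessel growth (the miR-23, miR-24 and miR-27 clusters, miR-221 and miR-222, miR-130a, miR-210, miR-296, miR-92a and miR-10b), 9 were lower and 1 higher in the control retina than in the control sclera, and the median difference was -2.35, against 0.30 over all miRNAs tested, of which 23% were called lower. In the deprived eyes 9 were lower and 2 higher, with a median of -2.89 against 0.36 and 26.4% of all miRNAs lower. On the scale of the 75th percentile 8 were lower and 2 higher in both pairs of groups. Over all 443 miRNAs, 88 were called lower there in each pair, and 150 (control eyes) and 187 (deprived eyes) higher. After quantile normalization the one called higher in both pairs was mmu-miR-210-3p, a miRNA induced by low oxygen. It stood at 11.01 ± 0.10 in the retina control and 8.36 ± 0.12 in the sclera control (SD, n = 3). On that scale mmu-miR-92a-3p was also higher in the control retina, by 0.94, short of 2-fold (limma adjusted p = 0.000199). In the deprived eyes it was higher by 1.20 and was called (limma adjusted p = 3.21e-05). Both mural cell miRNAs tested, mmu-miR-143-3p and mmu-miR-145-5p, which mark smooth muscle and pericytes, were lower in the retina in both pairs of groups on both normalized scales. Of the 2 red cell miRNAs, mmu-miR-451 was lower in the control retina (-2.04 on the log2 scale), and mmu-miR-144-3p, detected on 8 arrays, differed by 1.34 the other way (limma adjusted p = 0.593). Of 6 white cell miRNAs (miR-142, miR-223, miR-146a, miR-155 and miR-150), 4 were lower in the control retina, or 3 with the 75th percentile, and in the deprived eyes 4 were lower, or 5 lower and 1 higher. The mural, red and white cell calls stand against 23% of all miRNAs called lower in control eyes and 26.4% in deprived eyes. With the 75th percentile, 88 of 443 were lower in each pair. The summed normalized signal of the red cell list was 175 to 283 in the retina control and 871 to 918 in the sclera control, and that of the white cell list 59.8 to 142 and 958 to 1126. These summed blood miRNAs move with the tissue difference of both arms, and the part of blood left in the tissue was not tested.

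With deprivation, none of the 14 vessel-linked miRNAs, 6 white cell miRNAs or 2 red cell miRNAs was called in either tissue by limma. In the retina 1, 3 and 0 of them, respectively, had an unadjusted p under 0.05, against 130 of all 443 miRNAs. In the sclera it was 0, 1 and 0, against 13 of 443. The median change of the vessel-linked list in the retina was -0.11, against -0.12 over all miRNAs tested, and with the 75th percentile it was -0.10 against -0.01. That of the white cell list was -1.29, and that of the fibroblast list -1.14, with 2 of 5 at an unadjusted p under 0.05. Over all miRNAs tested the median was -0.12, and over the 41 with a mean normalized signal from 2 to 4 it was -0.87. With the 75th percentile the medians of the 2 lists were -0.30 and -0.45, against -0.01 over all miRNAs. Both list medians moved the same way as the retinal 5p difference, and the part of these lists in it was not tested. Not every member fell: after quantile normalization mmu-miR-214-5p of the fibroblast list differed by 3.66 the other way (limma adjusted p = 0.151). mmu-miR-214-3p and mmu-miR-142-5p were not detected on any retina array. In the mural cell list, mmu-miR-145-5p was the exception, and the miRNA that made up the 1 call in the retina (limma adjusted p = 0.000918). It was detected in 3 of 3 retina control arrays and in 0 of 3 retina myopia arrays. Its values in the latter were all the floor of 0.5, with an SD of 0. With the floor raised to the lowest detected signal of each array, 0 of 443 miRNAs were called in the retina. The partner of mmu-miR-145-5p, mmu-miR-143-3p, stood at 5.89 ± 0.78 in the retina control and 4.93 ± 0.28 in the retina myopia group (limma adjusted p = 0.151). Pigment epithelium miRNAs (miR-204 and miR-211) were bright in both tissues, with a summed normalized signal of 14787 to 15135 in the retina control and 7344 to 13794 in the sclera control, so that neither tissue was free of it or of other cells that make these miRNAs.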

How the data were processed

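Total RNA of 12 pools (4 groups of 3) was labelled with Cy3 and hybridised to Agilent 1-colour mouse miRNA arrays of 14635 spots, 1937 mouse probes and 696 mouse miRNA names. The deposited scanner files give spot, probe and gene intensity values, per the file headers from Feature Extraction 11.0.1.1. The study's methods name another version of it. The authors' value table holds log2 values of 437 miRNAs, set to a minimum of 0.5, quantile normalized and log2 transformed by the authors in Partek 6.6 (per the labels). Its scale and centring match this, since all columns share the median 5.63.

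Here the total gene signal was set to at least 0.5, quantile normalized over 696 names and 12 arrays, and log2 transformed. One linear model with 4 groups was fitted to all names detected on at least 1 array with limma 3.58.1 (lmFit, eBayes, 8 residual degrees of freedom) in R 4.3.3, with Benjamini-Hochberg adjustment over 443 miRNAs. The procedure was tested on simulated data. Levels of the arms are relative, and the number of arrays and the scanner error limit the precision; 0 spots were saturated. Differences between arms used exact permutation tests in Python 3.11.15.

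Pool numbers equal the slide (3 slides, 4 groups each) and were used to pair the samples. The paper matches same-numbered control and myopic retina samples. That same-numbered sclera pools come from the same animals was assumed. Deviations of same-numbered retina arrays correlated at 0.376, -0.464 and 0.586 over 246 miRNAs, and of sclera arrays at -0.138, -0.156 and -0.00148. The main model had no block, and the block changed no call of either arm. Each group had the same position on every slide, so position and group cannot be told apart.

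The members, marker lists and tests were chosen with earlier results of these data known. The miRNAs named are both arms, the 5 nearest profiles of each, and members of the marker lists; mmu-miR-210-3p was singled out after its values were seen. Alternatives varied the floor, normalization, background correction, filter, weights, block and arrays. Those added after seeing the data were the 5p arm by its 21-base probe alone, the sum of all probes, 75th percentile scaling with the block, arm differences without sclera control 3, and normexp without spots dimmer than their local background.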

Additional observations from a re-analysis of the deposited data

How the results depend on the processing

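Of the alternatives that keep all arrays, 17 of 19 kept both tissue differences of mmu-miR-126-3p past the thresholds, and 15 of 19 those of mmu-miR-126-5p. Those lost were: without normalization, -0.77 and -0.41 for the 3p arm (control and myopic eyes) and -0.57 and -0.44 for the 5p arm. With quantile normalization within each tissue they were -0.79 and -0.51 for the 3p arm and -0.0737 and -0.94 for the 5p arm, and with normexp -0.42 and -0.51 for the 5p arm (-0.50 and -0.61 without spots dimmer than their local background), where the offset of 50 shrinks differences of dim miRNAs by construction. Leaving out each array in turn kept all of them (3p -1.97 to -1.80 and -1.61 to -1.48, 5p -2.42 to -1.75 and -3.37 to -2.96). Near 0, the retinal 3p difference turned to 0.0145 without normalization and to 0.10 with normexp (0.0791 without those spots), and ran from -0.0695 to 0.0617 with an array left out. The retinal 5p difference was 0.0026 without normalization, -1.44 with array weights, and -1.51 to -0.76 with an array left out, called only without retina control 1. In the sclera the 3p arm ran from -0.41 to -0.23 and the 5p arm from -0.33 to 0.0723 with an array left out, and the 5p arm was 0.0039 with the 75th percentile over all names. The retinal minus scleral change of the 3p arm was -0.23 on that scale and 0.22 to 0.41 with an array left out. That of the 5p arm was 0.12 without normalization, -1.16 with array weights and -1.41 to -0.67 with an array left out.

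The replicate block left the arm differences at 0.01 (exact p = 0.75) in the retina, -0.22 (exact p = 0.5) in the sclera and -0.08 (exact p = 0.656) between tissues, and with it the 5p arm in the retina stayed at -1.07 (limma adjusted p = 0.146). Between tissues the arm difference was -0.29 with processed spot signals, 0.23 with normexp (-0.48 without the spots named), 0.93 quantile normalized, 1.37 in the authors' values, -0.28 with all probes and -0.32 with the 21-base probe. Without sclera control 3, the processed spot signals gave -0.19, all probes -0.18 and the 21-base probe -0.22. The total gene signal gave -0.15 to 0.0611 with an array left out, the highest without sclera control 3. In the sclera it was 0.0345 with normexp and -0.44 to 0.0806 with an array left out, and in the retina -0.0318 to 0.0559, and -0.0041 with normexp without the spots named.

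The number of all miRNAs called in the retina, 1, became 146 with array weights, 2 with the authors' values, and 0 with a floor at the lowest detected signal, processed spot signals, normexp, all probes, the retina arrays alone or only miRNAs detected on all arrays. It ran from 1 to 122 with an array left out, 122 without retina control 1 and 13 without retina myopia 3. In the sclera it was 1 with array weights and 0 to 1 with an array left out. Between tissues it was 82 (control) and 101 (myopic) with normexp, 100 and 121 without the spots named, and 128 and 139 with only miRNAs detected on all arrays, where fewer were tested, and 191 to 224 and 249 to 269 with an array left out. For the retinal minus scleral change it was 156 with array weights, 0 with the block, the raised floor, the authors' values, processed spot signals, normexp, all probes or the stricter filter, and 0 to 112 with an array left out. The cause of the other shifts was not tested. The dim 5p arm, near its detection limit in the retina, is the less precisely measured of the 2.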

Other observations

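The deposited log2 values of the authors differed from the quantile-normalized values computed here by at most 0.35 for mmu-miR-126-3p and 0.45 for mmu-miR-126-5p on any array. In them the 5p arm stood at 2.93, 4.08 and 4.502 in the retina control and at 2.42, 2.28 and 3.20 in the retina myopia group.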
